A study of Mus musculus with 4 samples.

Results

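The 9 genes described here write, maintain or remove methyl groups on cytosine in mouse embryonic stem (ES) cells with and without the homeodomain factor Prep1. They are the DNA methyltransferases *Dnmt1*, *Dnmt3a* and *Dnmt3b*, the cofactors *Dnmt3l* and *Uhrf1*, the dioxygenases *Tet1*, *Tet2* and *Tet3*, and the glycosylase *Tdg*. They were chosen by name from the 22718 genes of the RNA-seq tables. The symbols matched for 8 of them, and *Tet2*, which the tables list under a clone name, was matched by its Ensembl identifier ENSMUSG00000040943.

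RNA-seq was done on 1 wild type and 1 Prep1-/- ES cell library, both of the C57BL/6 strain and grown on gelatin with leukemia inhibitory factor (LIF), and the Prep1-/- library came from the single line KO2. Prep1 ChIP-seq was done on 1 wild type sample against its input. The labels give C57BL/6 for the ChIP-seq sample too, but its protocol names R1 ES cells, and the antibody can weakly recognise Prep2. With 1 library per genotype no replicate error exists and no test of the genotypes was possible, so the genotype and every other difference between the 2 libraries cannot be told apart.

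Methylated cytosine in mammals lies mainly in CpG dinucleotides. Dnmt3a and Dnmt3b place new methyl groups, Dnmt3l stimulates them without being catalytic itself, and Dnmt1 copies the pattern onto the daughter strand after Uhrf1 has bound the hemimethylated site. Tet enzymes oxidise the methyl group with oxygen and oxoglutarate, and Tdg excises the most oxidised forms so that base excision repair can put back cytosine. ES cells are known for high levels of the de novo enzymes and of Tet1.

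The files hold 29596294 wild type reads and 25717811 reads for the library labelled Prep1-/-, whereas the methods describe far fewer reads. *Pknox1*, the gene for Prep1, had 505 wild type reads and 332 in the other library, with RPKM 7.85 and 5.78, so the deleted gene kept reads and every direction below rests on the label. The paper reports loss of Prep1 protein by immunoblot in both of its null lines, KO2 among them. That is a measure of protein in the line and not of RNA in this library. The 10 ES cell markers listed for the check ranged from 11.7 to 767 RPKM among wild type values. They were mostly higher in the library labelled Prep1-/- (summed RPKM 2018 and 2326, median log2 ratio 0.33), with 1 called higher. The calls follow the size rule given below. It called 6.91% of the 14254 genes with RPKM over 1 in either library higher and 13.3% lower. Markers of other cell types also differed: 3 of 7 primitive endoderm markers (summed RPKM 10.7 and 6.22) and 3 of 6 trophoblast markers (summed RPKM 33.5 and 17.7) were called lower in the library labelled Prep1-/-, while of 8 fibroblast markers (summed RPKM 26.2 and 31.7) only 4 had RPKM over 1 and none was called. Among the 8, *Col1a1* had a ratio of 1.36 (1.25 to 1.48) and *Postn* 6 and 33 reads. *Fbn1* went the other way, with a ratio of 0.809 (0.718 to 0.911). *Col1a2* (1.06) and *Thy1* (1.04) had intervals that include 1. The primitive endoderm markers ranged from 0.0490 to 4.61 RPKM in wild type cells and the trophoblast markers from 0.0666 to 12.4. Ratios above 1 were found in these lists for *Sox7* (1.39, interval 1.09 to 1.79), *Afp* (1 and 6 reads) and *Elf5* (3 and 7 reads). The part of these cells in the values below was not tested, and in bulk RNA a change in the share of a cell type and a change of RNA per cell cannot be told apart.

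Prep1 had 7 peaks in or within 20 kb of the start of these genes, and the sequences below are shown because they are the stretches where Prep1 was found. The motif searched was bases 2 to 10 of the Prep1 decamer, GANTGACAG, and its last 6 bases TGACAG, on both strands. These letters had to match exactly, except at N. The study instead used a motif program, which allows weaker positions, and reported its decamer in most of all peaks. The shares here are therefore not its shares, and a peak or promoter without these exact letters may still hold the decamer. Every TGACAG within a GANTGACAG was counted under both. The longer motif was present in 4 of the 7 peaks, against 30.2% of all 3902 peaks. It lay in the central 200 bases of the same number of peaks, against 25.7% of all peaks over that length. These are the 4 sites with 25 bases on each side, written 5′ to 3′ on the strand that carries the motif, which is in capitals (mm9, NCBIM37).
Dnmt3b, chr2:153486561-153486619, plus strand: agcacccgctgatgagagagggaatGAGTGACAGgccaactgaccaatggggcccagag
Uhrf1, chr17:56429962-56430020, plus strand: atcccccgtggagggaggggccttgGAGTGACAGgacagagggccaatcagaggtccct
Tet1, chr10:62359868-62359926, minus strand: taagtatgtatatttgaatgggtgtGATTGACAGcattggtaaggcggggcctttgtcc
Tet2, chr3:133178400-133178458, plus strand: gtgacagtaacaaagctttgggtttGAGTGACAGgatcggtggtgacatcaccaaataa
The sites at *Dnmt3b*, *Uhrf1* and *Tet1* lay -9, 13 and 44 bases from the middle of their peaks, and the site at *Tet2* lay -65 bases from it.

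The shorter motif was found in all 7 peaks, against 58.4% of all peaks, and in the central 200 bases of 5 of the 7, against 39.6%. Of the exact forms searched, the remaining 3 peaks held only the shorter, which is shown in capitals.
Dnmt3a, chr12:3792092-3792147, minus strand: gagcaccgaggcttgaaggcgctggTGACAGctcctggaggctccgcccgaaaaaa
Dnmt3l, chr10:77512252-77512307, minus strand: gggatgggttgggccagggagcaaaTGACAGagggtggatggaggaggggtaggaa
Tet2, chr3:133206248-133206303, minus strand: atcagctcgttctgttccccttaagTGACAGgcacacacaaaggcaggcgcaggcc
A match of these letters is a description of the sequence, and occupancy of the single site was not measured.

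Counted over genes, 6 of the 9 had a peak in the gene or within 20 kb of its annotated start, compared with 26.1% of 13650 annotated genes with RPKM over 1 in either library. With the distance to the start alone the same number of members counted, compared with 23.8%. *Dnmt1*, *Tet3* and *Tdg* had none by this rule. The fold enrichment that the authors' peak caller gave ranged from 8 to 144 over the 7 peaks, and its median over all peaks was 21.

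**Figure D1:**
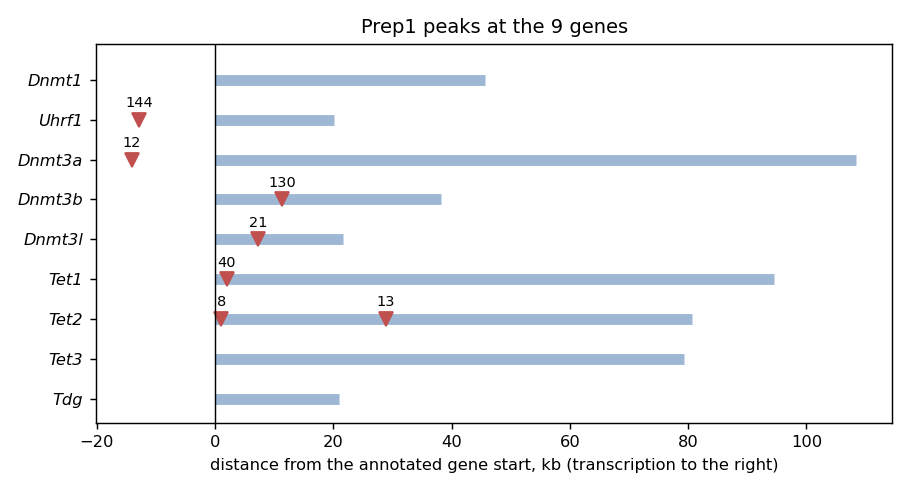
Position of the Prep1 peaks at each of the 9 genes, with the distance of the peak middle from the annotated gene start in kb on the horizontal axis. Blue bars are the annotated gene spans, triangles are peaks and the number above each is its fold enrichment. The triangles of Tet1 and of the weaker Tet2 peak sit within 2013 bases of the start, and those of Uhrf1 and Dnmt3a lie upstream of the gene.

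The *Tet1* peak was at chr10:62359504-62360202, 2013 bases downstream of the start of transcript Tet1-001 and outside annotated exons, thus in an intron, with a 40-fold enrichment that exceeded 68.6% of all peaks. Its central 240 bases on the plus strand (chr10:62359733-62359972) are shown with the motif, read on this strand as its reverse complement, in capitals.
Tet1 peak: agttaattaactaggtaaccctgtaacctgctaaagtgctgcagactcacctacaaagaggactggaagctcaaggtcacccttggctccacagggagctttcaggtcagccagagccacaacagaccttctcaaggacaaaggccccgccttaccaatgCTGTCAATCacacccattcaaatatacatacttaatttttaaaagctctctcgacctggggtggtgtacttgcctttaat
*Tet2* had a peak of 8-fold enrichment 1072 bases downstream of its start (chr3:133205995-133206569) and one of 13-fold 28860 bases downstream (chr3:133178243-133178746), both outside exons. Only 1.33% of all peaks had a lower enrichment than the first of them.

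The strongest peak inside a member was that of *Dnmt3b* (chr2:153485916-153487282), 130-fold enriched, 11413 bases downstream of the gene start and overlapping an annotated exon. *Dnmt3l* had a 21-fold peak at chr10:77511700-77512340, inside the gene and outside exons. Its middle lay 7328 bases downstream of the gene start but at -567 from the start of the transcript Dnmt3l-003, with its edges at -887 and -247. It was the only peak to overlap the TSS-proximal range (500 bases upstream to 100 downstream) of any annotated transcript of a member. The 240 bases at its end nearer that transcript (chr10:77512101-77512340, plus strand) are given for this reason, with the reverse complement of TGACAG in capitals.
Dnmt3l peak: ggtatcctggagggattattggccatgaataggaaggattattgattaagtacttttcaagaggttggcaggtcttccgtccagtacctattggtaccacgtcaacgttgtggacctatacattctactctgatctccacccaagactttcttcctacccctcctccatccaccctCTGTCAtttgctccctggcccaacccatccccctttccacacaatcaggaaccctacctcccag

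The 2 peaks upstream of a member lay outside its annotated span, and 1 of them lay at another gene. The peak counted for *Uhrf1* (chr17:56429357-56430599, 144-fold) was at -12766 from the start of *Uhrf1* but at -44 from that of *Plin3*, which encodes a lipid droplet protein. A second, 186-fold peak (chr17:56464540-56465842) began past the other end of *Uhrf1*, at -294 from the start of the histone demethylase gene *Kdm4b*, and was not counted. The *Dnmt3a* peak (chr12:3791738-3792180, 12-fold) was at -14048 from its start and 12411 bases from a start of *Dtnb*. No peak was TSS-proximal to the annotated gene start of any of the 9.

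The RefSeq table (GRCm38.p6) held 16 promoters of all 9 genes, each 300 bases long. None contained GANTGACAG, which 1.96% of 32851 promoters contained, and 1 of them, of *Dnmt1*, contained TGACAG, against 19.2%. The promoters of the members differed in CpG content: *Tet2* had 57 CpG dinucleotides in the window, *Dnmt3b* 30, *Tdg* 26, *Tet3* 22 and *Tet1* 17, and the median promoter had 7. Genes with several promoters ranged from 18 to 47 (*Dnmt3a*), 12 to 33 (*Uhrf1*), 2 to 33 (*Dnmt1*) and 3 to 6 (*Dnmt3l*).

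All 9 genes had RPKM over 1 in both libraries. RPKM scales reads by gene length and library size, so levels can be set side by side between genes. In both libraries the order by RPKM was *Dnmt3l*, *Dnmt3b*, *Dnmt1*, *Tet1*, *Uhrf1*, *Tet2*, *Dnmt3a*, *Tet3* and *Tdg*, from 178 down to 1.69 RPKM for wild type cells and from 171 down to 1.47 for the Prep1-/- label. The gene length behind the RPKM was unusual for some members: relative to the annotated exons, where 100% is the median gene, it came to 4.23% for *Tdg*, 26.6% for *Tet3*, 34.8% for both *Tet1* rows together, 47.5% for *Dnmt3l* and 161% for *Dnmt3b*, so the level of one gene against another is less certain than the ratio of a gene between libraries. With reads per kilobase of annotated exons, scaled to the summed reads of the library, and both *Tet1* rows added, the order changed: *Dnmt3b* came first at 166 and 172, *Dnmt3l* had 67.0 and 66.1, *Dnmt1* 65.8 and 79.2, *Tet2* 21.5 and 30.4, *Uhrf1* 20.9 and 27.7, and *Tet1* 17.9 and 27.3. Without replicates, which neighbours in this order differ beyond their spread is unknown.

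**Figure D2:**
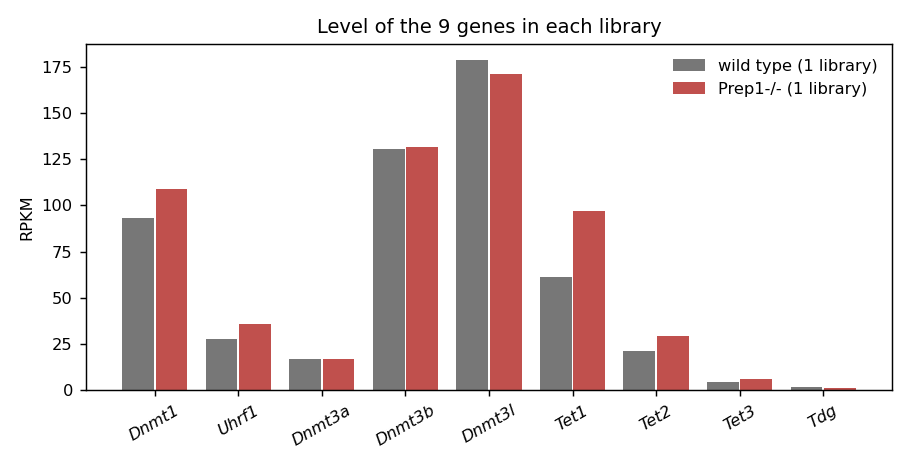
RPKM of the 9 genes (vertical axis, linear from 0) in the wild type library (grey) and the library labelled Prep1-/- (red), 1 library each and hence no error bars. The bars of Dnmt3a, Dnmt3b and Dnmt3l are nearly level between the libraries, and the red bar is taller for Dnmt1, Uhrf1, Tet1, Tet2 and Tet3.

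The question put to the RNA-seq was which genes differ between Prep1-/- and wild type ES cells. A gene was called lower with a wild type RPKM over 1 and a KO/WT ratio under 0.7, and higher where the Prep1-/- RPKM was over 1 and the ratio over 1.5. None of the 9 was called lower, against 13.3% of the 14254 genes with RPKM over 1 in either library, and 1 was called higher, *Tet1*, against 6.91%. The KO/WT ratio was above 1 for 6 members, with a 95% exact interval for counting error that lay above 1 for 5 of them and below 1 only for *Dnmt3l*. The share of all genes with such an interval was not computed. Of the 60 other pathway genes described below, 17 had an interval above 1 and 15 below, so nothing is read from the count of members. The median ratio of the 9 was 1.17 (log2 0.23), while it was 0.955 (log2 -0.07) over the 13218 genes with RPKM over 1 in both libraries, of which 58.8% had a ratio below 1.

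Of the maintenance genes, *Dnmt1* (ENSMUSG00000004099, chr9:20711650-20757317, minus strand) had 10251 wild type and 10719 Prep1-/- reads. Its level was 93.2 and 109 RPKM, a ratio of 1.17 (interval 1.14 to 1.20). *Uhrf1* (ENSMUSG00000001228, chr17:56442744-56462909, plus strand), which brings Dnmt1 to replicated DNA, had 2635 and 3032 reads. Both were higher in the library labelled Prep1-/- and neither passed the call. The level of *Uhrf1* was 27.9 and 35.9 RPKM, a ratio of 1.29 (1.22 to 1.36), which exceeded the ratio of *Dnmt1* 1.10-fold (1.04 to 1.17). A stretch of chromosome X (chrX:118447609-118450192) matched 71.9% of the *Uhrf1* transcript at 97.7% identity, so reads assigned to *Uhrf1* may be shared with that copy.

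The de novo genes were nearly level between the libraries. *Dnmt3a* (ENSMUSG00000020661, chr12:3806007-3914443, plus strand) had 7014 and 6239 reads and 17.1 and 17.0 RPKM, a ratio of 0.995 (0.961 to 1.03). *Dnmt3b* (ENSMUSG00000027478, chr2:153475186-153513466, plus strand), the most sequenced member, had 25147 and 22635 reads and 130.6 and 131.5 RPKM, a ratio of 1.01 with the narrowest interval of the 9 (0.989 to 1.02). Both intervals include 1 and leave room for a difference of a few percent in either direction as far as counting goes.

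*Dnmt3l* (ENSMUSG00000000730, chr10:77504692-77526367, plus strand), the catalytically inactive cofactor, had the highest RPKM of the members, though not the highest level per annotated exon base. It had 5922 and 5077 reads and 178 and 171 RPKM, a ratio of 0.959 (0.923 to 0.995). That is lower than for *Dnmt3b* by a ratio of 0.953 (0.914 to 0.993), but it lies at the median of the expressed genes, 50.8% of which had a lower ratio. Summed over the family, Dnmt3 RPKM was 326 and 320.

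The Tet genes were all higher in the library labelled Prep1-/-. *Tet1* was listed in 2 rows. The row named *Tet1* (ENSMUSG00000075009) had 2610 and 3689 reads, with 61.3 and 96.8 RPKM and a ratio of 1.58 (1.503 to 1.66), higher than in 96.1% of expressed genes. The other row, AC166359.3 (ENSMUSG00000047146), is the gene that the GENCODE M1 annotation calls *Tet1* (chr10:62267318-62361866, minus strand). It had 5196 and 6636 reads, with 67.6 and 96.5 RPKM and a ratio of 1.43 (1.38 to 1.48). Both rows were higher, but summed, with 7806 and 10325 reads, the ratio was 1.48 (1.44 to 1.52), which is under 1.5. By the summed reads none of the 9 genes passed either call, so the single call rests on the choice of the gene model.

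*Tet2* (chr3:133126643-133207354, minus strand) had 5863 and 7205 reads. Its level was 21.3 and 29.3 RPKM, a ratio of 1.37 (1.33 to 1.42), short of the call. The ratio of the row named *Tet1* exceeded that of *Tet2* 1.15-fold (1.08 to 1.22). *Tet3* (ENSMUSG00000034832, chr6:83312367-83391672, minus strand), which is known best for its work in the zygote, was the least abundant Tet gene. With 329 and 372 reads its level was 4.79 and 6.05 RPKM, a ratio of 1.26 (1.09 to 1.47).

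**Figure D3:**
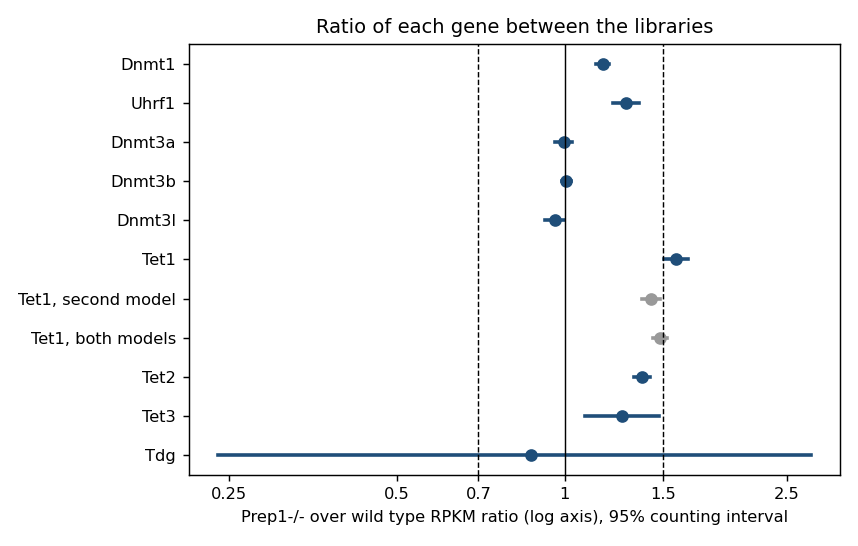
KO/WT ratio of RPKM for each gene on a log axis, with the 95% exact interval for counting error, a solid line at 1 and dashed lines at the call limits of 0.7 and 1.5. Grey points are the second Tet1 gene model (1.43) and the sum of both models (1.48), and Tdg has the widest interval, from 0.240 to 2.76.

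Set against *Dnmt3b*, which counted the most reads, the ratio was 1.57-fold higher for the row named *Tet1* (1.49 to 1.66), 1.37-fold for *Tet2* (1.31 to 1.42) and 1.26-fold for *Tet3* (1.08 to 1.46). A common factor for a library cancels in these quotients, whereas setting each chromosome's median to 0 changes them. Both *Tet1* rows summed had a lower ratio, 1.48, and their quotient was not computed. Summed Tet RPKM, without the second *Tet1* row, was 87.4 and 132, and the row named *Tet1* held 70.1% and 73.3% of it. That share depends on the row and its length: with the reads of both *Tet1* rows per annotated exon base, a setting added after the data were seen, it was 44.3% and 46.2%. The level of *Tet1* over that of *Dnmt3b* was 0.469 and 0.736 by RPKM of the row named *Tet1*. It was 0.108 and 0.158 with both rows per annotated exon base.

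*Tdg* (ENSMUSG00000034674, chr10:82092573-82113544, plus strand) had too few reads for a ratio. It had 8 and 6 reads and 1.69 and 1.47 RPKM, a ratio of 0.870 with an interval from 0.240 to 2.76. The length behind its RPKM was 4.23% of its annotated exons, under 10% as for only 1.11% of genes. A further row described as *Tdg*, AC152980.2, had 7 and 5 reads. In the genome 4 other regions each matched more than 50% of the *Tdg* transcript at 90% identity or more, the best of them (chr15:82346686-82349711) 86.4% of it at 98.6% identity. Whether its reads were lost to such copies was not tested.

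*Dnmt3b* had 11 matches, each under 300 bases, that together covered 30.8% of its transcript at 96.4% identity on chromosome 2 (chr2:153539210-153555667). The nearby gene *Gm14490* had 1 read in each library, and whether these matches lie in it was not checked. *Tet2* had 1 match to 3.53% of its transcript and *Tet1* had 413, each under 300 bases and together over 3.6% of it. No match was found for *Dnmt1*, *Dnmt3a*, *Dnmt3l* or *Tet3*.

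**Figure D4:**
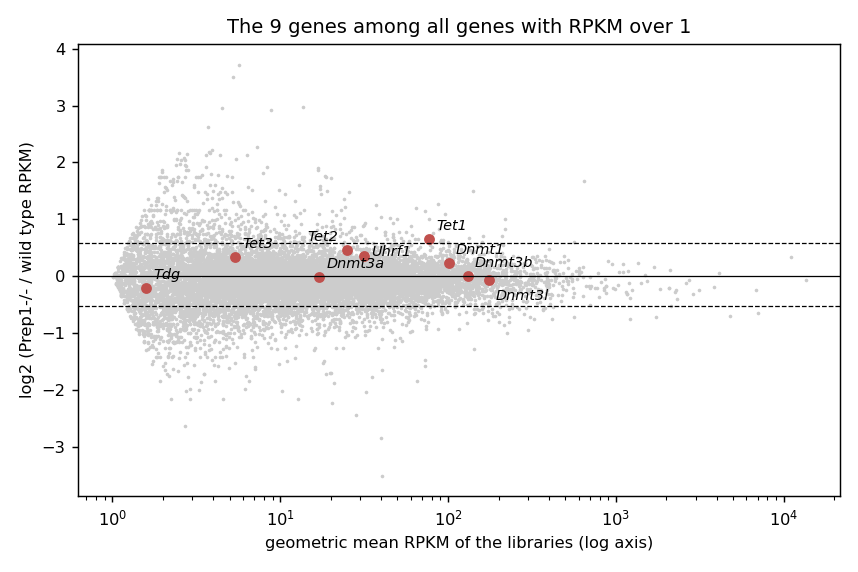
Log2 KO/WT ratio against the geometric mean RPKM of both libraries (log axis) for the 13218 genes with RPKM over 1 in both (grey) and the 9 genes (red), with dashed lines at the call limits. The row named Tet1 is the only red point outside the limits, and many genes lie at higher levels than any red point.

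By the rule of similar level in both libraries, *Gstp1* (60.6 and 97.6 RPKM), *Txnip* (64.8 and 95.4) and *Cenpm* (62.4 and 106) were closest to *Tet1*, which had the highest ratio of the 9. *Lrrn4cl* (1.69 and 1.49), *Anxa9* (1.72 and 1.49) and *Trim63* (1.72 and 1.44) were closest to *Tdg*, which had the lowest. These are 2 values per gene, and likeness over 2 libraries says little.

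The other 60 genes of the pathway, in 4 lists, were 5 times called lower and 3 times called higher, against the backgrounds of 13.3% and 6.91%, and 56 of them had RPKM over 1 in either library. Their median log2 ratio was -0.02. Of 9 genes listed as methyl-CpG readers, 1 was called lower, *Zbtb4* (1.71 and 1.10 RPKM, ratio 0.642). *Mbd3*, a NuRD complex subunit, had the highest wild type level in that list (146 and 135, ratio 0.923).

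Among 15 recruiters and partners of the enzymes 1 was called higher. It was *Prdm14*, which in ES cells is known to repress *Dnmt3b* and *Dnmt3l*, with 186 and 490 reads and 2.63 and 7.72 RPKM, a ratio of 2.94 (2.48 to 3.51). *Dnmt3b* and *Dnmt3l* themselves had the ratios of 1.01 and 0.959 given above. *Trim28*, a corepressor that keeps imprints methylated, was the most abundant of this list at 883 and 1032 RPKM (ratio 1.17).

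Of 17 deaminases and base excision repair genes, which follow Tet oxidation or act beside it, 2 were called higher and 3 lower. *Ung*, the uracil glycosylase, had 43.6 and 66.9 RPKM (ratio 1.54), and the cytidine deaminase *Apobec3* had 50.8 and 79.6 (ratio 1.57). The lower ones were *Apobec1* (3.95 and 2.54, ratio 0.643), *Gadd45b* (39.2 and 26.5, ratio 0.675) and *Gadd45g* (29.0 and 19.3, ratio 0.665), stress-response genes in the case of the Gadd45 pair. *Apex1*, the abasic site nuclease, had the highest wild type level at 143 and 146 RPKM (ratio 1.02).

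The 19 genes of methyl donor and oxoglutarate supply included 1 called lower, *Gnmt*, which uses up S-adenosylmethionine to methylate glycine, at 9.68 and 3.78 RPKM (ratio 0.391). *Shmt2*, which feeds folate with serine carbon in mitochondria, was the most abundant at 245 and 263 (ratio 1.07). *Uhrf2*, the paralog of *Uhrf1*, belongs to the list of methyl-CpG readers instead. It had 10.6 and 9.33 RPKM, a ratio of 0.883 (0.813 to 0.958).

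Germline genes listed as silenced by methylation were taken as a possible readout, though not all of them were silent in these libraries. Of 11 such genes, 9 had RPKM over 1 in either library and 6 in both. The call gave 3 higher, beside 6.91% of all genes, and 1 lower, but the 3 had wild type RPKM under 1 and entered only through the library in which they were higher, so nothing is read from that count. The synaptonemal complex gene *Sycp1* had 25 and 61 reads (0.510 and 1.36 RPKM, ratio 2.67, interval 1.69 to 4.54), *Stk31* had 52 and 100 (0.801 and 1.71 RPKM, ratio 2.13, interval 1.52 to 3.07) and the meiotic gene *Hormad1* had 15 and 29 (0.866 and 1.82 RPKM, ratio 2.10, interval 1.12 to 4.34). *Tdrd1*, of the piRNA pathway, had 211 and 126 reads (1.5 and 1.00 RPKM, ratio 0.670). The levels of these called genes were all under 2 RPKM, while the list as a whole reached 5.845 RPKM in wild type cells and 7.682 for the Prep1-/- label. Methylation of DNA itself was not measured.

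**Figure D5:**
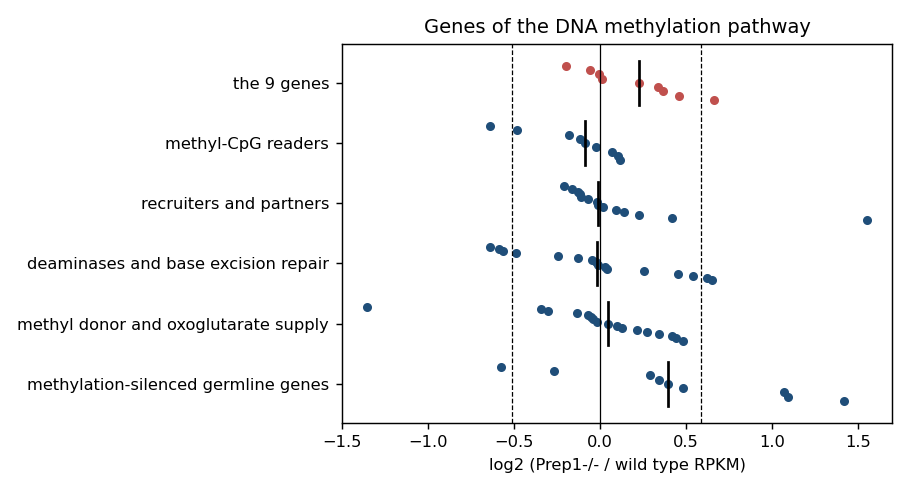
Log2 KO/WT ratio of the 9 genes (red) and of the genes with RPKM over 1 in either library in 5 further lists (blue), sorted within each row, with the median of each row as a black bar and dashed lines at the call limits. Prdm14 is the isolated point on the right among recruiters and partners, and Gnmt the one on the left among methyl donor genes.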

How the data were processed

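RNA-seq tables held, for 22718 genes, a read count, a whole number that the authors deposited without normalization, and an RPKM value that the authors deposited after assigning paired-end reads to Ensembl genes with RSEM. DESeq is named in the processing notes, and program versions are not given in the sources used here. The ratio of deposited RPKM values equals 1.118 times the ratio of the read counts plus 1 for each gene. Genes listed as infinite (85 in each library) were left out. The ChIP-seq peak list, called by the authors with MACS after alignment with BWA, carries a score, which is the fold enrichment that the authors deposited as a rounded value; positions are on mm9 (NCBIM37) as the file gives them.

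The KO/WT ratio was taken from the deposited RPKM values with nothing further added, and these values already hold 1 added read per gene. Its 95% exact Clopper-Pearson interval came from the unaltered read counts, as the share of reads in the library labelled Prep1-/-. It covers counting error only, and reads are not independent molecules. The intervals for the ratio of a gene over that of another gene were not exact. They came from the odds ratio of the read counts of both genes with a normal approximation, and they also cover counting error only. No test was run. Counts simulated with counting error alone and known ratios served to check the code for the interval and the calls. They held no variation between libraries, so they do not show how the interval would behave over replicate libraries. A peak belonged to a gene if it overlapped the GENCODE M1 span or had any base within 20 kb of the start. Copies of member transcripts were sought with BLAST+ 2.17.0 at 90% identity. The scripts ran in Python 3.11.15 (scipy 1.17.1, pandas 2.3.3, numpy 2.4.6, matplotlib 3.10.9, pysam 0.24.0).

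The members and lists were chosen with earlier results of these data known. Named are the 9 members, *Pknox1*, called germline genes, and in each pathway list the called genes and the one with the highest wild type RPKM. Also named are the 3 genes of most similar level to the members with the lowest and highest ratio. Genes taken as copies of members and genes overlapping members are named too. *Sox7*, *Afp*, *Elf5*, *Col1a1*, *Postn*, *Fbn1*, *Col1a2*, *Thy1* and *Uhrf2* were added after their values were seen.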

Additional observations from a re-analysis of the deposited data

How the results depend on the processing

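Dividing by the summed reads, by the upper quartile of the reads, by the median ratio of expressed genes or by each chromosome's median gave a median log2 ratio of the 9 genes of 0.27, 0.27, 0.29 and 0.31 in place of 0.23, and left 1 member called higher and none lower. The ratio of *Dnmt3a* ranged from 0.995 to 1.05 and that of *Dnmt3l* from 0.959 to 1.04 over the scalings and pseudocounts, so both changed sides of 1, while the other members stayed on their side. With limits of 0.5 and 2, 0 members were called higher, and 1 other pathway gene was called lower and 1 higher. Other pathway genes called lower numbered 3 with 1 added to RPKM and 3 with RPKM over 5. With both *Tet1* models summed, an alternative chosen after seeing the data, 0 members were called higher. Members with a peak numbered 0 for TSS-proximal peaks at the gene start, 1 (*Dnmt3l*, chosen after seeing the data) for any transcript start and 2 (*Dnmt3b* and *Uhrf1*) for peaks with a score of at least 100, a limit planned for another score scale. They numbered 4 within 5 kb of the start or in the gene. With a score of at least 20, a limit added after the data were seen, they also numbered 4. The share of all genes was computed only for the 20 kb rules, so whether these counts are low or high is unknown. No paired analysis was possible because each genotype had 1 library. The intervals were widest for *Tdg* and, less so, *Tet3* and the germline genes, and why *Tdg* had few reads was not tested.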

Other observations

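*Aire*, the autoimmune regulator gene, overlaps *Dnmt3l* on the opposite strand and shares 67 exon bases with it. It had 371 wild type and 1012 Prep1-/- reads (7.38 and 22.5 RPKM). The study speaks of transcripts from the sense strand, but its methods as used here give no strand setting for the counting, so whether reads in the shared bases were kept apart was not tested. *Glt8d2* overlaps *Tdg* on the opposite strand over 367 exon bases and had 7 and 4 reads. The other overlapping genes in the tables were *Gm10485* at *Dnmt3a* with 0 reads in both libraries, *7530422B04Rik* at *Dnmt3b* with 34 and 16, and a *U6* copy at *Tet1* with 5 and 5.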
